A study of Mus musculus with 2 samples.

Results

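Forkhead (Fox) genes encode transcription factors that share a winged-helix DNA-binding domain, and their letters name subfamilies set by sequence. FoxA factors open closed chromatin in endoderm and are known partners of Hedgehog signaling, FoxO factors are held in the cytoplasm by insulin and growth factor signals, *Foxm1* drives entry into mitosis, FoxP factors repress transcription, and *Foxd3* marks early neural crest. In stratified epithelium, *Foxn1* and *Foxe1* are known from hair and palate development. Members were taken from the deposited expression table by name: Fox, 1 letter from a to s and a number. This gave 41 genes among 21611 entries with a value in both libraries. *Foxf1*, *Foxc2* and *Foxl1* were not analysed here.

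Lingual epithelium of newborn (P0) Sox2GFP mice, in which GFP reports *Sox2*, was dissociated, and GFP-high and GFP-low cells were sorted. Pups were pooled, both populations carry the reporter, and about 100000 cells of each gave 1 RNAseq library. With 1 library per population there was no replicate check on any difference below, and no test was run. *Sox2* itself was at 112.3 FPKM in the GFP-high and 59.0 in the GFP-low library. FPKM divides fragment counts by transcript length and by library depth, so levels can be compared between genes on this scale. The values moved in steps that correspond to roughly 27250000 reads in the GFP-high and 34000000 in the GFP-low library, although only 57.9% and 62.7% of low values lay within 0.15 of a whole read there. Read numbers given below rest on those estimates. The sample labels give more, about 75000000 reads per sample, and the reason for the gap was not tested. The labelled epithelium had its markers, with *Krt5* at 9667 FPKM in the GFP-high and 10422 in the GFP-low library, but fibroblast and neural crest genes were also present.

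Of the 41 genes, 5 were listed at 0 in both libraries (*Foxa3*, *Foxb1*, *Foxb2*, *Foxl2* and *Foxr2*), 23 reached 1 FPKM in a library and 21 reached 5 FPKM. That last share, 51.2%, was close to the 49.8% of all entries. A gene was called enriched at 5 FPKM or more in a population and a ratio of at least 1.5 to the other. By this rule *Foxe1*, *Foxc1* and *Foxa2* were higher in GFP-high cells, and *Foxd3*, *Foxa1* and *Foxp2* were higher in GFP-low cells. The 3 genes in each direction were 14.3% of the 21 expressed members, against 9.48% of all expressed entries for GFP-high and 8.91% for GFP-low. Over all entries, expressed or not, the shares were 4.72% and 4.44%, from 1021 and 959 calls. Scaled to equal sums, the libraries gave 814 and 1205 calls over all entries but the same 3 and 3 counts for Fox genes.

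**Figure D1:**
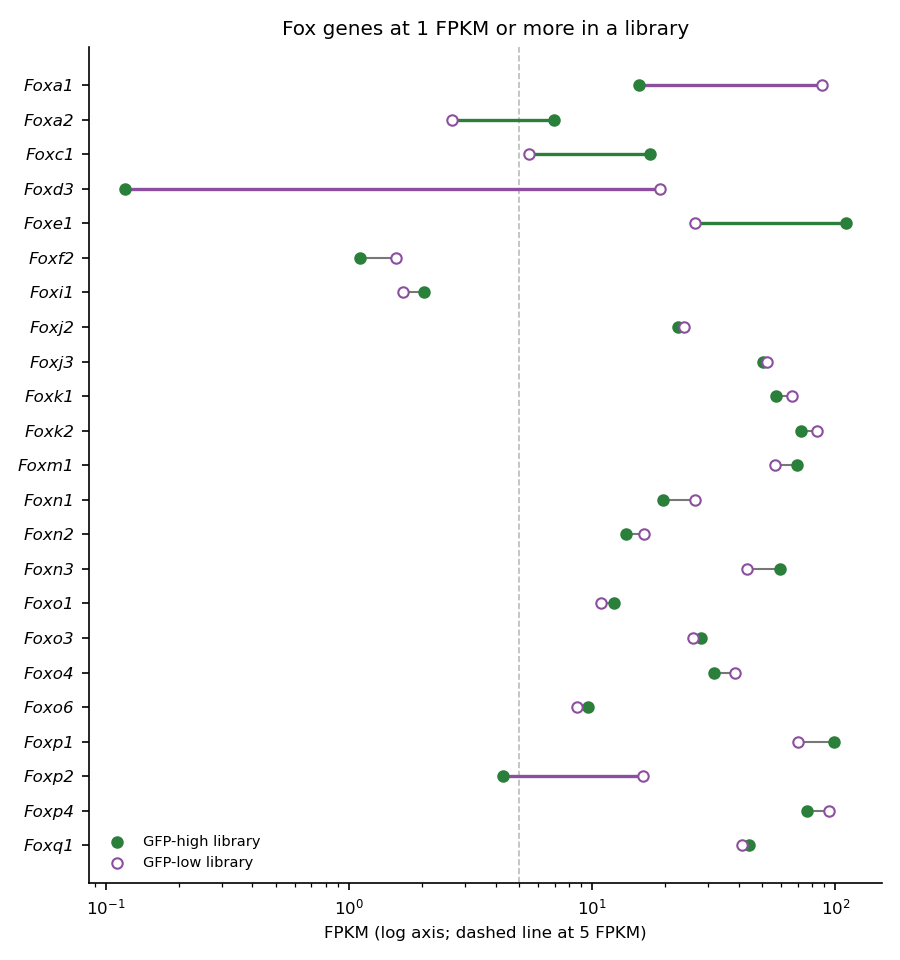
Level of each of the 23 Fox genes at 1 FPKM or more in a library, in FPKM on a log axis; filled points are the GFP-high library, open points the GFP-low library, and thick colored lines join the values of the 6 enriched genes. For most genes the points nearly touch, whereas those of *Foxd3* lie at 0.12 and 19.0 FPKM.

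The spread of Fox ratios was near that of all genes. Of 18 Fox genes at 5 FPKM or more in both libraries, 15 lay within 1.5-fold (83.3%, against 85.9% of all such entries). The median size of the log2 ratio in those 18 was 0.26, and over all entries it was 0.21. Among the 21 expressed members, 10 had the higher value in the GFP-high and 11 in the GFP-low library. The summed level of all Fox genes was 824.6 FPKM in the GFP-high and 823.1 in the GFP-low library. On the deposited scale the sums were thus nearly equal while single members exchanged places. Scaling the libraries to equal sums lowers the ratio of these sums by 0.10 on the log2 scale. *Foxe1* had the highest level of all Fox genes in GFP-high cells and the 11th in GFP-low cells, while *Foxa1* was 2nd in GFP-low and 15th in GFP-high cells.

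**Figure D2:**
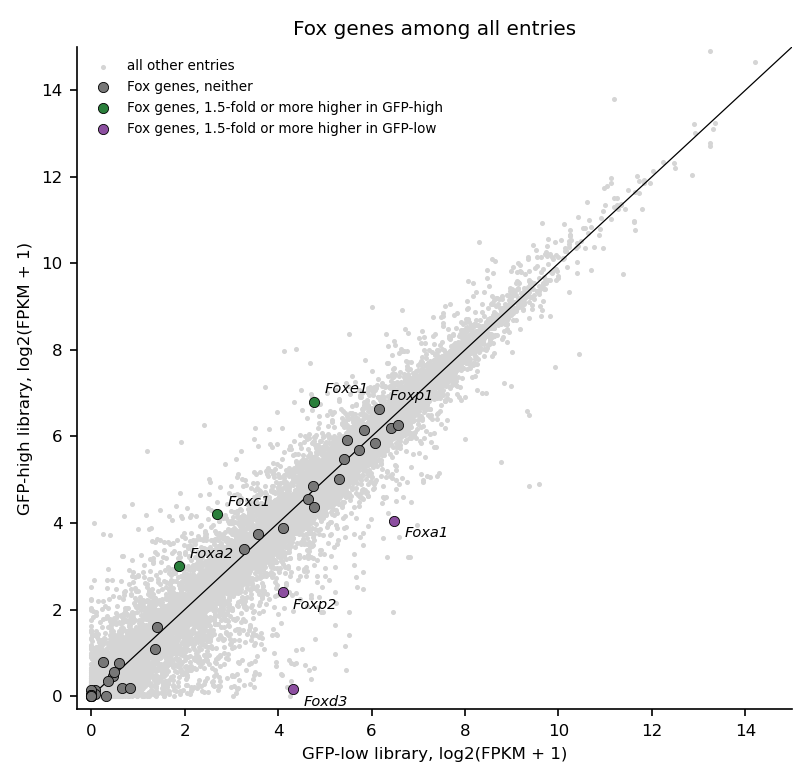
GFP-high against GFP-low expression as log2(FPKM + 1) for all entries (small gray points) and the 41 Fox genes (large points), with the line of equal expression. The 6 enriched Fox genes lie off the line and the rest lie nearer to it.

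The pair *Foxa1* and *Foxa2*, pioneer factors that act in overlapping ways in endoderm, pointed in opposite directions. *Foxa1* was at 15.6 FPKM in the GFP-high and 87.9 in the GFP-low library, 5.65-fold higher in GFP-low. *Foxa2* was at 6.98 FPKM in the GFP-high and 2.66 in the GFP-low library, 2.62-fold higher in GFP-high, a call that was lost at a minimum of 10 FPKM or with 5 FPKM required in each library. There was thus 2.23 times as much *Foxa1* as *Foxa2* in GFP-high cells and 33.1 times as much in GFP-low cells. Their summed level was 4.02-fold higher in GFP-low cells. In bulk RNA, a change in the number of cells that express a gene and a change in RNA per cell cannot be told apart. *Foxa1* lies at chr12:57540628-57546916 on the minus strand of mm10 and *Foxa2* at chr2:148042877-148046969, also on the minus strand, and each has 2 exons in its longest coding transcript.

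Related Fox genes are alike over the DNA-binding domain, so the reads of 50 nt had to be told apart there. The most alike coding stretches of 50 nt are shown for *Foxa1* and *Foxa2*, 5′ to 3′ on the coding strand with differing bases in capitals, because these paralogs moved in opposite directions. They come from GENCODE M21 transcripts on mm10, at chr12:57542820-57542869 and chr2:148044314-148044363.
Foxa1: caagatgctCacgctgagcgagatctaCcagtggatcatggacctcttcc
Foxa2: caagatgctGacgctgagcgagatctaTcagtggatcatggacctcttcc
These 2 differences are the fewest in any such pair of windows from the coding sequences of *Foxa1* and *Foxa2*. Among all 820 pairs of members, the median was 13 differences, and 16 pairs came as close as 1 or 2. In 1 pair, *Foxd3* and *Foxd4*, more than 1 window was identical. Shown is 1 of these windows, because *Foxd3* had the largest fold of any Fox gene. It lies at chr4:99657135-99657184 in *Foxd3* and at chr19:24900359-24900408 in *Foxd4*.
Foxd3 and Foxd4: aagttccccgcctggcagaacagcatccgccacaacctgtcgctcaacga
A read that falls wholly in it, or in another identical window, cannot be assigned to 1 of these genes. Of all 50-nt windows of *Foxd3* exons, 2.59% occur in another gene, and for *Foxa1* and *Foxa2* none do. That share counts *Foxd4* together with *Gm23366*, a miRNA gene that overlaps 89 exon bases of *Foxd3* on the same strand. It is therefore not a measure of likeness to *Foxd4* alone.

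The Hedgehog genes listed beside the FoxA factors did not move as a block. Of 14, 4 were higher in GFP-high cells (including *Shh*, *Ptch1* and *Gli1*), 1 was higher in GFP-low cells (*Hhip*, a ligand-binding antagonist, joined by 2 more when the libraries were scaled to equal sums) and 9 were not called. Among these 9, the ligand *Dhh* was at 0.33 FPKM in the GFP-high and 4.57 in the GFP-low library, under the minimum of 5 FPKM. The ligand *Shh*, a known inducer of *Foxa2* in the floor plate, was at 20.7 FPKM in the GFP-high and 0.84 in the GFP-low library. *Gli1*, a transcription factor and target of the pathway, was at 53.5 and 13.6 FPKM. The transducer *Smo* was at 75.7 and 80.9 FPKM and the coreceptor *Gas1* at 77.1 and 76.2 FPKM. The median difference in log2(FPKM + 1) over the list was -0.07, beside -0.02 over all entries above 0.

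*Foxe1*, needed for thyroid and palate development and a known Hedgehog-responsive gene of the hair follicle, was at 110.5 FPKM in the GFP-high and 26.4 in the GFP-low library. The ratio was 4.19, the highest among Fox genes enriched in GFP-high cells. It is a gene of 1 exon at chr4:46343609-46346412 on the plus strand. Its relative *Foxe3*, a lens gene, was listed at 0 in the GFP-high and at 0.25 FPKM in the GFP-low library. Genes of the differentiating, suprabasal layers went the same way as *Foxe1*. All 8 had the higher value in GFP-high cells and 6 were called (5 with the libraries scaled to equal sums), with *Krt13* at 30523 FPKM in the GFP-high and 9738 in the GFP-low library and *Krt4* at 14203 and 2323 FPKM. Their summed level was 77964 and 36163 FPKM, and no member was at 0. Of 7 basal keratinocyte genes, 1 (*Itgb4*) was called, in GFP-low cells (2 with the libraries scaled to equal sums), and all 7 had the higher value there. Whether these layers had a part in the Fox differences was not tested.

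*Foxc1*, which acts in mesenchyme, vessels and skin appendages, was at 17.3 FPKM in the GFP-high and 5.50 in the GFP-low library, a ratio of 3.15. Most endothelial markers were low, and *Egfl7*, a secreted protein of vessels, was the most abundant at 18.5 and 15.9 FPKM. Of 9, 8 had the higher value in GFP-high cells, 1 (*Pecam1*, at 5.31 and 2.38 FPKM) was called but not with the libraries scaled to equal sums, and their summed level was 37.0 and 26.2 FPKM. *Cdh5*, which defines endothelium, was at 4.51 FPKM in the GFP-high and 2.19 in the GFP-low library, and no member was at 0. The part of endothelial cells in the *Foxc1* value was not tested.

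*Foxc1* is 1 of 3 Fox genes that lie within 256343 bp on chromosome 13, and of these 3 only *Foxc1* was called. *Foxq1*, an epithelial factor with a role in the hair medulla, starts the group at chr13:31556134-31560976 and was at 43.9 FPKM in the GFP-high and 41.4 in the GFP-low library. With each library scaled to the same sum, its ratio of 1.06 became 0.99. *Foxf2*, a mesenchymal factor of the tongue and palate, lies 69.7 kb further on and was at 1.11 and 1.56 FPKM. *Foxc1* follows at chr13:31806633-31812476, and *Gmds*, an enzyme gene beyond it on the other strand, was called in GFP-high cells like *Foxc1*, just past the threshold at 5.55 and 3.69 FPKM. The value of *Foxq1* carries an uncertainty of its own. The gene *A530084C06Rik*, at 1.23 and 0.71 FPKM, lies antisense over 66.1% of its exon bases, and whether reads were counted by strand is not given in the sources used here.

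*Foxd3* had the largest fold of the family. It was at 0.12 FPKM in GFP-high cells, worth about 7 reads, and at 19.0 FPKM in GFP-low cells, worth about 1373 reads. The fold was 158, the largest among the 957 enriched entries of that direction above 0 in the other library, and the rounding of the deposited values alone allows 152 to 165. With 1 added to each value, the difference was -4.16 on the log2 scale. The call was lost where 5 FPKM was required in each library. *Foxd3*, a gene of 1 exon at chr4:99656299-99658622, maintains neural crest and represses its later fates. Its subfamily members were all under 1 FPKM: *Foxd1*, a gene of kidney stroma and retina, was at 0.69 and 0.51 FPKM, *Foxd2* was at 0.13 and 0.57 FPKM and *Foxd4* was at 0.10 and 0.05 FPKM. *Foxs1*, expressed in the sensory crest lineage and in pericytes, was at 0.14 FPKM in the GFP-high and 0.78 in the GFP-low library.

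Other neural crest and glial genes had the direction of *Foxd3*. Of 12, 7 were higher in GFP-low cells by the rule and 1, the melanocyte regulator *Mitf*, was higher in GFP-high cells. *Sox10*, the defining factor of crest-derived glia, was at 0.51 FPKM in the GFP-high and 42.7 in the GFP-low library. The summed level of the list was 95.7 FPKM in the GFP-high and 321.7 in the GFP-low library, no member was at 0, and the median difference was -2.53. *Erbb3*, a receptor that epithelium also expresses, was at 60.3 and 66.9 FPKM and was not called. *Mitf*, at 17.2 and 1.24 FPKM, and the melanosome gene *Pmel*, at 1.09 and 0.73 FPKM, had their higher value in GFP-high cells. The part of these cells in the *Foxd3* value was not tested.

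Among the FoxP genes, which bind DNA as dimers and recruit corepressors, the 3 expressed members each had a pattern of their own. *Foxp2*, known for its roles in brain and lung, was at 4.29 FPKM in the GFP-high and 16.1 in the GFP-low library, 3.75-fold higher in GFP-low, a call that was lost with 5 FPKM required in each library. *Foxp1* was at 98.6 FPKM in the GFP-high and 70.3 in the GFP-low library, and *Foxp4* was at 76.0 and 93.7 FPKM, neither past 1.5-fold (1.40 and 1.23). The ratio of *Foxp1* to *Foxp4* was therefore 1.30 in the GFP-high and 0.75 in the GFP-low library, and that of *Foxp1* to *Foxp2* was 23.0 and 4.37. The summed level of the subfamily was 179.2 and 180.3 FPKM, the highest of any subfamily in both populations. *Foxp3*, the factor of regulatory T cells, was at 0.27 and 0.29 FPKM, and 23.1% of its 50-nt windows lie in overlapping genes, among them *Ccdc22* at 19.8 and 25.3 FPKM. None of 9 leukocyte markers reached 5 FPKM, and together they summed to 4.90 and 4.71 FPKM. *Ptprc*, which defines leukocytes, was at 0.06 and 0.02 FPKM, the T cell genes *Cd8a* and *Ctla4* were listed at 0 in both libraries, and the myeloid integrin *Itgam* was the highest at 3.01 and 2.49 FPKM. Of 11 partners of FoxP proteins, none was called in either direction. By value alone, 9 of them were higher in GFP-low cells, beside 5967 of the 10768 expressed entries. The deacetylase *Hdac2* was at 211 and 249 FPKM.

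Fibroblast genes were higher in GFP-low cells in 5 of 12 cases by the rule, and none was called in the other direction. By value alone, 10 were higher in GFP-low and 2 in GFP-high cells. Those 2 were *Thy1*, at 19.6 FPKM in the GFP-high and 16.2 in the GFP-low library, and *Twist2*, at 2.27 and 0.50 FPKM. *Col3a1*, a collagen of connective tissue, was at 193 FPKM in the GFP-high and 966 in the GFP-low library, and *Dcn*, a matrix proteoglycan, was at 143 and 504 FPKM. The list summed to 435.3 and 1842 FPKM, with no member at 0. *Foxf2*, the Fox gene of mesenchyme, differed by only 1.41-fold, and the receptor *Pdgfra*, which defines fibroblasts, was at 1.42 and 1.46 FPKM. The part of fibroblasts in the Fox genes higher in GFP-low cells was not tested.

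*Foxm1*, which activates genes of the G2 and M phases, was at 69.6 FPKM in the GFP-high and 56.6 in the GFP-low library, a ratio of 1.23 that did not reach the threshold. Its listed targets all had the higher value in GFP-high cells, 15 of 15 under each scaling tried, while 4797 of the 10768 expressed entries did. By the rule 6 of them were called in GFP-high cells and none in GFP-low cells, and with each library scaled to the same sum 4 were. The median difference was 0.42 on the log2 scale. *Top2a*, a topoisomerase of dividing cells, was at 233 and 182 FPKM, and *Birc5*, a subunit of the chromosomal passenger complex, was at 112.2 and 90.4 FPKM. *Cenpf*, a kinetochore protein chosen after its values were seen, had the largest ratio of the list, 1.88, at 79.7 and 42.4 FPKM.

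The FoxO genes, which promote arrest and stress resistance when growth factor signals are low, were all expressed and none was called. *Foxo4* was at 31.6 FPKM in the GFP-high and 38.5 in the GFP-low library, and *Foxo3* was at 27.9 and 26.0 FPKM. *Foxo1* was at 12.3 and 10.9 FPKM and *Foxo6*, known from brain, at 9.57 and 8.63 FPKM. The sums were 81.4 and 84.0 FPKM, which differ by 1.03-fold. Of 12 regulators of FoxO proteins, 1 was called in GFP-high cells (*Pik3cb*, a PI3-kinase subunit, at 10.1 and 6.47 FPKM), and it was not called when each library was scaled to the same sum. Under that scaling, 1 other regulator was called, in GFP-low cells. The kinases that export FoxO from the nucleus were abundant, with *Akt1* at 279.7 and 316 FPKM and *Sgk1* at 154 and 188 FPKM. Of 18 FoxO targets, 2 were called in GFP-high cells: *Sesn1*, a stress-response gene, at 92.3 and 54.7 FPKM, and the insulin receptor substrate *Irs2* at 49.0 and 30.0 FPKM. *Cdkn1a*, the cell cycle inhibitor p21, was at 609 and 492 FPKM.

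No member of the FoxK, FoxJ and FoxN subfamilies was called either. *Foxk2* exceeded *Foxk1* by 1.27-fold in both populations. These paralogs, which repress autophagy genes and promote glycolysis, were at 72.0 and 56.7 FPKM in GFP-high cells and at 84.3 and 66.6 FPKM in GFP-low cells. *Foxk1* is also known from muscle progenitors, and of 9 skeletal muscle genes 1 (*Tnnt3*, at 8.58 and 5.05 FPKM) was called, with summed levels of 22.4 and 22.1 FPKM. *Foxj3* was at 50.3 and 52.3 FPKM and *Foxj2* at 22.5 and 23.8 FPKM, with a ratio between them of 2.2 in both populations. Among FoxN genes, the checkpoint factor *Foxn3* was at 59.0 FPKM in the GFP-high and 43.2 in the GFP-low library. *Foxn1* was at 19.6 and 26.4 FPKM and *Foxn2* was at 13.8 and 16.3 FPKM. The ratio of *Foxn3* to *Foxn1* was 3.01 in the GFP-high and 1.64 in the GFP-low library. *Foxn1*, which promotes keratinocyte differentiation, thus had its higher value where the suprabasal genes were lower, by 1.35-fold and below the threshold.

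*Foxj1* and *Foxi1* direct rare epithelial cell types and were low in both libraries, worth about 30 and 33 reads for *Foxj1* and 120 and 122 reads for *Foxi1*. *Foxj1*, the master regulator of motile cilia, was at 0.46 and 0.40 FPKM. Of 16 motile cilia genes in the table, 2 reached 5 FPKM: *Tppp3*, a tubulin-binding protein found in many cells, was called in GFP-high cells at 1513 and 875.5 FPKM, and *Rfx2* was at 24.8 and 27.9 FPKM. *Mcidas* and *Gmnc*, which start the multiciliated program, were at 0.02 and 0.04 FPKM in GFP-high cells and listed at 0 in GFP-low cells. *Foxi1*, the factor of ionocytes and of acid-secreting cells, was at 2.04 and 1.66 FPKM, and its relatives *Foxi2* and *Foxi3* were under 1 FPKM. Of 11 ionocyte genes, 8 had the higher value in GFP-high cells and 3 were called there: *Tfcp2l1* at 28.3 and 17.0 FPKM, the proton pump subunit *Atp6v1b1* at 11.1 and 4.23 FPKM and *Dmrt2* at 6.92 and 2.13 FPKM. The pump subunit *Atp6v1c2* went the other way, at 8.97 and 16.7 FPKM. *Ascl3*, an ionocyte factor, was at 2.33 and 1.88 FPKM, and the anion exchanger *Slc26a4* was listed at 0 in both libraries.

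**Figure D3:**
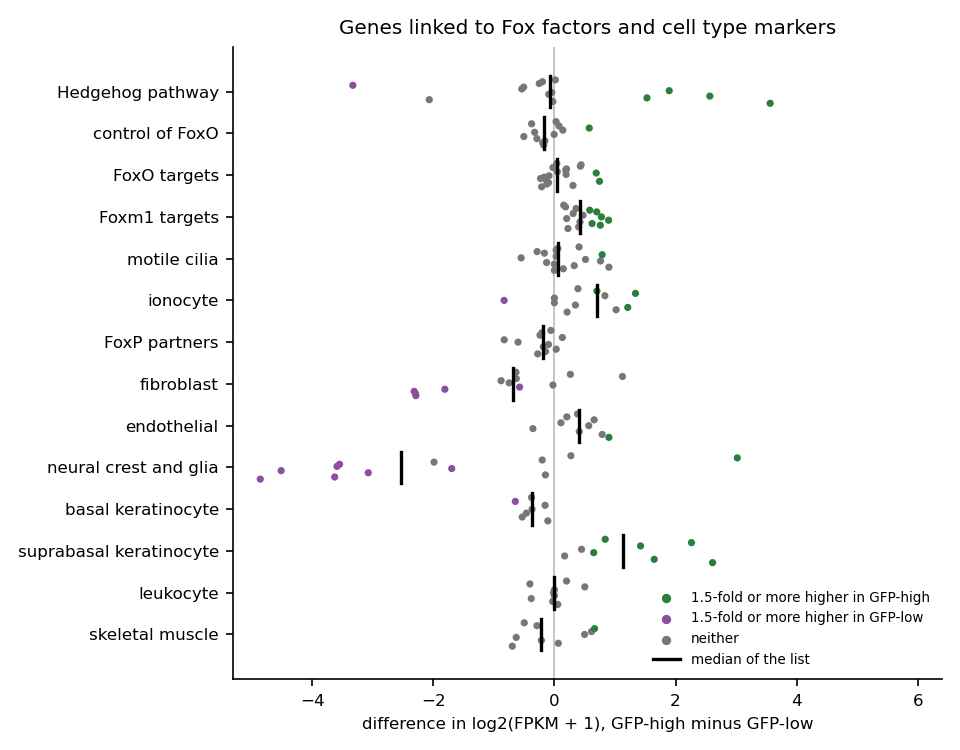
Difference in log2(FPKM + 1), GFP-high minus GFP-low, for each gene of 7 lists linked to Fox factors and 7 lists of cell type markers; colored points passed 1.5-fold with 5 FPKM in the enriched library, gray points did not, and black bars are medians of the genes above 0 in a library. All 15 Foxm1 targets lie to the right of 0, and 10 of 12 neural crest and glial genes lie to the left.

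Over genes above 0 in a library, the list medians of the difference in log2(FPKM + 1) were highest for suprabasal keratinocyte (1.13), ionocyte (0.70), Foxm1 target (0.42) and endothelial (0.41) genes. With its 2 genes listed at 0 in both libraries included, the ionocyte median was 0.39, below the Foxm1 target and endothelial medians. They were lowest for neural crest and glial (-2.53), fibroblast (-0.69), basal keratinocyte (-0.38) and skeletal muscle (-0.21) genes. The remaining medians lay between -0.18 for FoxP partners and 0.06 for motile cilia genes, with FoxO regulators at -0.17, FoxO targets at 0.04 and leukocyte genes at -0.01.

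The enriched Fox genes had few exons, a feature the choice of members did not use. Of 7 expressed members with 1 or 2 exons in the longest coding transcript, 5 were called in either direction (71.4%). Of 14 with 3 or more exons, 1 was called (7.14%), *Foxp2*, which has 18. Over all expressed entries with a coding model, 163 of 635 with 1 or 2 exons (25.7%) and 1813 of 10121 with more (17.9%) were called. The 2 expressed members with few exons that were not called were *Foxq1* and *Foxo6*. Few exons also went with low expression, since 14 of the 20 members under 5 FPKM had 1 or 2 exons. The counts are small, members of a subfamily share their gene structure by descent, and the pattern was noticed after the values were seen.

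**Figure D4:**
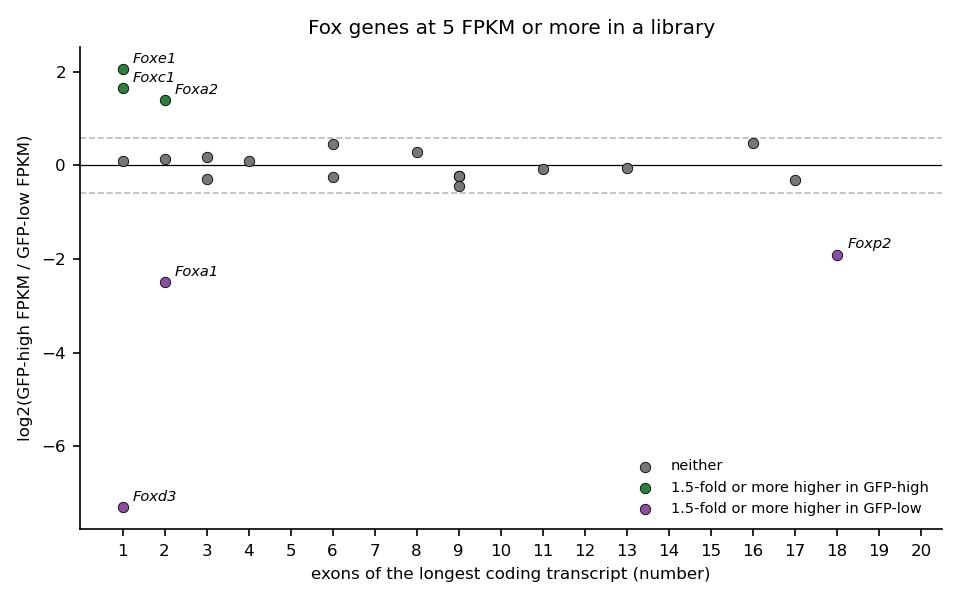
Log2 ratio of GFP-high to GFP-low FPKM against the number of exons in the longest coding transcript, for the 21 Fox genes at 5 FPKM or more in a library; dashed lines mark 1.5-fold. Points at 1 and 2 exons spread widely, and apart from *Foxp2* those at 3 or more exons stay between the dashed lines.

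Promoters of Fox genes were rich in CpG. RefSeq promoters on GRCm38.p6 were at hand for 28 of the 41 genes (33 start sites), and 250 bases before each start were read. *Foxe1*, *Foxp2*, *Foxm1* and *Foxq1* were among the 13 genes not searched. The median GC content was 62.0% and the median ratio of observed to expected CpG was 0.70, against 52.4% and 0.37 over 32851 promoters of all genes. The GC box GGGCGG, on either strand, was found in 69.7% of Fox promoters and 32.7% of all. The forkhead motif TGTTTAC, on either strand, was found in 1 Fox promoter, that of *Foxa1*, and in 3.17% of all. The Gli motif GACCACCC was found in none of the 33 Fox promoters searched and in 0.70% of all. The promoters of *Foxa1* (chr12:57546112-57546361, minus strand) and *Foxc1* (chr13:31806396-31806645, plus strand) are shown as 2 enriched genes of opposite direction with alike CpG ratios, 0.89 and 0.93. Capitals mark the CCAAT box, found in 42.4% of Fox and 33.8% of all promoters, and the forkhead motif, each of which may stand on the opposite strand.
Foxa1: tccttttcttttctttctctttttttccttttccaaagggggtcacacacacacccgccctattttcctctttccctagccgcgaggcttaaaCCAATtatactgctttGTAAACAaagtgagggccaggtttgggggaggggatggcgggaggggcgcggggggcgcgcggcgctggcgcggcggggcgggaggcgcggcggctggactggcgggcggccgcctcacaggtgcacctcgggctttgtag
Foxc1: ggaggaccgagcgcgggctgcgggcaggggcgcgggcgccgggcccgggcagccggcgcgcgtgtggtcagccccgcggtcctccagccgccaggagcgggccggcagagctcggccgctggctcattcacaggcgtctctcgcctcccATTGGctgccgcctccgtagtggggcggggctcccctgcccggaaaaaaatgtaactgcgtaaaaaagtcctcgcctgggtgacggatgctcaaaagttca
The RefSeq start of *Foxa1* lies inside the GENCODE span of the gene, chr12:57540628-57546916, so the window shown falls within that span. In *Foxa1* the CCAAT box starts 157 bases and the forkhead match 141 bases before the RefSeq start site. In *Foxc1* the CCAAT box starts 101 bases before it. A match to these letters is not evidence of binding.

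The smaller Sox and Klf families gave a comparison beside the 41 Fox genes. Of 11 expressed Sox genes of 19, 2 were called in the GFP-high and 3 in the GFP-low library. Of 12 expressed Klf genes of 17, 2 were called in each direction. *Sox2*, whose reporter was the basis of the sort, is among the Sox genes called in GFP-high cells, at 112.3 and 59.0 FPKM. That call follows from the sort, and *Sox2* also counts among the Sox genes outside 1.5-fold below. Of the genes at 5 FPKM or more in both libraries, 62.5% of Sox and 66.7% of Klf genes lay within 1.5-fold, beside 83.3% of Fox genes. These shares rest on 8, 12 and 18 genes, and their difference was not tested.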

How the data were processed

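A pair of RNAseq libraries was compared, GFP-high and GFP-low lingual epithelium of P0 Sox2GFP mice, 1 each. The authors trimmed single-end 50-nt reads of a stranded kit with Trimmomatic 0.36, mapped them to mm10 with GSNAP, computed FPKM with Cufflinks 2.2.1 and deposited FPKM rounded to 2 decimals, with their own fold column, which was not used. Labels give about 75000000 reads per sample.

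Of 21628 entries, 17 lacked a number in a library and were left out. Ratios were taken of the FPKM, and differences of log2(FPKM + 1), which understate changes of low genes. Enrichment needed 5 FPKM and a ratio of 1.5. No test was possible with 1 library per population. Depth was estimated from the steps of low FPKM. Coordinates, exons and 50-nt coding windows came from GENCODE M21. Every Fox gene at 1 FPKM or more in a library was named. From each list, genes were named by highest mean FPKM, as cell type definers, or after their values were seen. The last were chosen where few were called or where a member went another way. Members and lists were chosen with earlier results of these data known. Calls were tested on simulated data. Python 3.11.15, pandas 2.3.3 and numpy 2.4.6 were used. Alternatives were FPKM minimums of 1, 10, none and 5 in each library, a ratio of 2, pseudocounts of 1 and 0.1, scaling to equal sums (TPM), and scaling by the median ratio, 0.973.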

Additional observations from a re-analysis of the deposited data

How the results depend on the processing

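No paired analysis was possible because each population had 1 library, so no replicate could be left out either. The count of 3 Fox genes higher in GFP-high cells became 8 without an FPKM minimum and 2, without *Foxa2*, at a minimum of 10 FPKM or with 5 FPKM required in each library. The count of 3 higher in GFP-low cells became 7 without a minimum and 1, *Foxa1*, with 5 FPKM required in each library. Over all entries, 1021 were higher in the GFP-high and 959 in the GFP-low library. These became 1542 and 1564 at a minimum of 1 FPKM, 3139 and 3253 with none, and 449 and 467 at a ratio of 2. With 5 FPKM in each library they were 778 and 634. Scaling to equal sums (TPM) lowered every ratio by 0.10 on the log2 scale and gave 814 and 1205, so that the split moved toward GFP-low, while the Fox counts stayed at 3 and 3. Of the 23 named Fox genes, *Foxq1* alone turned its direction under that scaling, and no enriched one did. With pseudocounts of 1 and 0.1, the *Foxd3* ratio of GFP-high to GFP-low was 0.056 and 0.012. Depth limits genes such as *Foxd4*, worth about 5 and 3 reads.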
